A study of Mus musculus with 148 samples.

Results

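The genes *Gpr89*, *Nup210l* and *Rit1* of mouse chromosome 3 were followed through allele-specific sequencing of chromatin-associated RNA (ChrRNA-seq), which reads nascent transcripts, introns included, and assigns them to the parental alleles by SNPs. They are 3 of 538 genes with an allelic ratio in WT and *Suz12* null cells, and all 3 are also among the 517 genes of a second table with *Lbr* null clones. They were chosen by their measured silencing in the first table, namely weak or absent silencing in *Suz12* null cells, so their values in those 12 libraries are a description and carry no test. All cells were iXist-Chr3, a male (XY) 129S × Cast mESC line (P4D7F4) with a randomly integrated, doxycycline-inducible *Xist* transgene on 1 copy of chromosome 3, cultured in differentiation medium without (NoDox) or with (Dox) doxycycline for 72 hours. WT cells and cells of a *Suz12* null line derived from them each gave 3 NoDox and 3 Dox libraries, and 3 *Lbr* null clones (4C7A, 4C8E and 4F9F) gave 1 NoDox and 1 Dox library each, beside 1 WT pair. The *Suz12* null cells are a single line, so line and genotype cannot be told apart. The WT pair of the *Lbr* table is titled mRNA in the labels while their extraction protocol describes chromatin RNA, so its RNA fraction is uncertain, and it has no replicate.

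Xist is the long noncoding RNA that silences the chromosome it is transcribed from. Among the pathways it recruits is Polycomb repressive complex 2 (PRC2), of which Suz12 is a core subunit, and PRC2 places the repressive mark H3K27me3. LBR, the lamin B receptor of the inner nuclear membrane, was deleted in the other line, which keeps *Suz12*. *Gpr89* encodes a multi-pass membrane protein known as the Golgi pH regulator, *Nup210l* encodes a relative of the nuclear pore membrane protein Nup210, and *Rit1* encodes a small GTPase of the Ras family.

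On mm10, *Rit1* spans chr3:88716854-88731048 (plus strand), *Nup210l* chr3:90104132-90212017 (plus strand) and *Gpr89* chr3:96871066-96905298 (minus strand), as listed in the deposited table. *Rit1* and *Nup210l* lie 1.43 Mb apart, midpoint to midpoint, and *Gpr89* lies 6.73 Mb from *Nup210l*. The transgene, at the position given in the methods, is 37.1 Mb from *Rit1*, 35.6 Mb from *Nup210l* and 28.9 Mb from *Gpr89*, on the same side of all 3. The first 606 bases of *Gpr89*, as the table lists it, overlap *Gja5*, a gap junction gene that the GENCODE vM21 annotation places on the opposite strand, and counting was strand-specific. In that annotation *Rit1* contains the noncoding gene *Gm17146* and *Nup210l* contains the small RNA genes *Gm23723* and *Gm24185* and the pseudogene *Gm43712*. All are annotated on the strand of their host, so reads in these stretches overlap a further gene, and the effect on the ratios is unknown.

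PRC2 is known to occupy CpG-rich promoters, so the 250 bases before the annotated start are shown for the 2 members with a RefSeq promoter (GRCm38.p6), 5′ to 3′ on the gene's strand, with each CpG in capitals. The *Gpr89* stretch is chr3:96905299-96905548 (minus strand) and the *Rit1* stretch is chr3:88716604-88716853 (plus strand).
Gpr89: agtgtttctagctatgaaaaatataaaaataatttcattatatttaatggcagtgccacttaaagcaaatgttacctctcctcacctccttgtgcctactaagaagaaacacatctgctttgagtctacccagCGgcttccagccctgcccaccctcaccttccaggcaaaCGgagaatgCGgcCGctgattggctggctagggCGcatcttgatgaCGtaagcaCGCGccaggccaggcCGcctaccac
Rit1: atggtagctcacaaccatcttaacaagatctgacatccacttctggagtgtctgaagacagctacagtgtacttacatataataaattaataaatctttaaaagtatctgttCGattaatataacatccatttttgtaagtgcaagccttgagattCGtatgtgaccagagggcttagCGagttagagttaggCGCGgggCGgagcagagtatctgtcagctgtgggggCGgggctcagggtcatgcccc
The motif searched was CG, which reads the same on both strands. The *Gpr89* stretch holds 9 CpGs and is 49.6% G or C, and the *Rit1* stretch holds 7 CpGs and is 44.4% G or C. Over the 406 listed genes with a matched promoter, 99.5% held at least 1 CpG, the median was 17 with quartiles of 10 and 23, and the median content of G or C was 60%. Both stretches were thus on the CpG-poor side of this set, with 311 promoters holding more CpGs than *Gpr89* and 341 holding more than *Rit1*. *Nup210l* was not matched.

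Each value is a gene's Xi/(Xi + Xa), its allelic ratio, with Xi the reads from the transgene-bearing Cast copy. Silencing z is the change of the mean ratio on adding Dox, so a more negative z is stronger silencing. A ratio of 0.5 means equal RNA from both alleles. Read counts do not accompany the ratios, so depth per gene is unknown and precision was taken from the spread between libraries. Several ratios of *Gpr89* are simple fractions (0.75, 0.8 and 0.5), as few reads would give. So are ratios of *Rit1* in *Suz12* null Dox libraries (0.5 and 0.625). The SE between libraries may then understate the error of such a gene. In RNA from whole cultures, a smaller loss of the Xi allele in every cell and a loss in fewer cells cannot be told apart. The median ratio over all genes was 0.470 to 0.475 in the WT NoDox libraries and 0.471 to 0.474 in the *Suz12* null NoDox libraries, and with Dox it was 0.287 to 0.322 and 0.319 to 0.370. Of 7 markers of stem cells and feeder fibroblasts on this chromosome only *Ctsk*, a protease, is listed in the first table, at an RPKM of 0.884, so the labelled cell type could not be checked from them. *Suz12* and *Lbr* lie on other chromosomes and were not analysed here.

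*Gpr89* started from a high share of the Xi allele and kept it with Dox in *Suz12* null cells. Its ratio in the WT NoDox libraries was 0.824, 0.8 and 0.812, the second highest mean of all 538 genes, and above that of each of its 40 neighbours within 2 Mb in each of these libraries. With Dox it was 0.619, 0.600 and 0.548 in WT cells. The WT Dox libraries thus lay below all WT NoDox libraries while most of the RNA still came from the Xi allele. In *Suz12* null cells the ratio was 0.750, 0.769 and 0.750 without Dox and 0.824, 0.733 and 0.818 with Dox. These overlap, and 2 of the 3 Dox libraries lay above every NoDox library of the line. z of *Gpr89* was -0.223 ± 0.0222 (SE, n = 3 and 3 libraries) in WT cells and 0.0353 ± 0.0299 in *Suz12* null cells. All 3 *Suz12* null Dox ratios were above all 3 WT Dox ratios, a pattern seen in 23.8% of all genes.

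*Nup210l* had the lowest Dox ratios of the 3 genes, in *Suz12* null cells as in WT cells. Its WT ratio was 0.495, 0.466 and 0.463 without Dox and 0.138, 0.121 and 0.173 with Dox. The WT Dox libraries kept 30.3% of the NoDox ratio. In *Suz12* null cells the ratio was 0.346, 0.355 and 0.392 without Dox and 0.252, 0.271 and 0.295 with Dox, which leaves 74.8% of the NoDox ratio. The Dox libraries lay below all NoDox libraries in both lines, as they did for 87.4% of all genes in WT cells and for 75.1% in *Suz12* null cells. z was -0.331 ± 0.0184 in WT cells and -0.0918 ± 0.0188 in *Suz12* null cells. On its z in *Suz12* null cells *Nup210l* ranked only 206 of 538 from the weakest, against 3 for *Gpr89* and 12 for *Rit1*. Part of the difference lies in the uninduced cells, where all 3 *Suz12* null libraries were below all 3 WT libraries, as in 6.88% of genes. The mean NoDox ratio of *Nup210l* was lower by 0.111 in *Suz12* null cells (difference -0.111, the 7th lowest of 538), while the median difference over its 58 neighbours was -0.00871.

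*Rit1* lost little of the Xi allele in either line. The WT ratio was 0.618, 0.612 and 0.614 without Dox and 0.604, 0.507 and 0.512 with Dox. The groups did not overlap, but the first Dox library was nearly at the NoDox level. In *Suz12* null cells the ratio was 0.656, 0.526 and 0.565 without Dox and 0.500, 0.643 and 0.625 with Dox, and these values are intermingled. z was -0.0737 ± 0.0316 in WT cells and 0.00686 ± 0.0591 in *Suz12* null cells. In WT cells z ranked 88 of 538 from the weakest. The study counts a gene as weakly or not silenced above a limit of -0.05, and 42 genes were above that limit in WT cells against 102 in *Suz12* null cells.

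**Figure D1:**
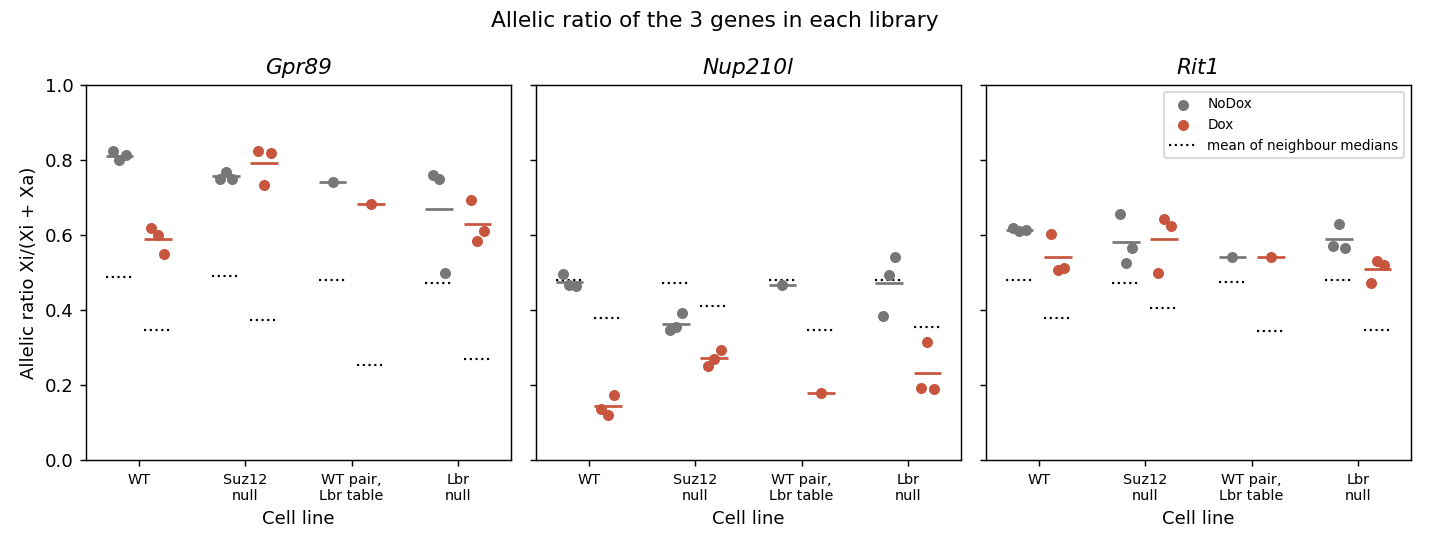
Allelic ratio Xi/(Xi + Xa) of Gpr89, Nup210l and Rit1 in each library, NoDox in grey and Dox in red, with the group mean as a bar and the mean of the library medians of the neighbours within 2 Mb as a dotted line. Gpr89 Dox libraries lay between 0.548 and 0.619 in WT cells and between 0.733 and 0.824 in Suz12 null cells, whereas Nup210l Dox libraries lay below its NoDox libraries in both lines.

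The difference in z between the lines, *Suz12* null minus WT, was 0.258 for *Gpr89*, 0.239 for *Nup210l* and 0.0806 for *Rit1*, and ranked 3, 5 and 84 of 538. For *Gpr89* it was made of a Dox ratio higher by 0.203 and a NoDox ratio that differed by -0.0556. For *Nup210l* the Dox ratio was higher by 0.129, beside the NoDox difference of -0.111 given above. The median difference over all genes was 0.0343, and 425 of 538 genes had a positive one. Ordered by this difference, *Gpr89* and *Nup210l* were thus near the top of the 538 genes and *Rit1* was not. The order describes the libraries that chose the genes, and line and genotype cannot be told apart, so no dependence on Suz12 is read from it. Larger differences than that of *Gpr89* were listed for *Lxn*, which encodes the carboxypeptidase inhibitor latexin (0.312), and *Pabpc4l*, a poly(A)-binding protein gene, and *Lrit3* lay between the 2 members. Next to *Rit1* in this order were *Hax1* (0.0807) just above and *4930579G24Rik* (0.0799) just below. Over all genes the limma test of the difference (Benjamini-Hochberg adjusted p under 0.05) called weaker silencing in *Suz12* null cells for 0.372% of genes, which is 2 genes, *Gpr89* and *Nup210l*. As these were chosen on this contrast, nothing is read from the 2 calls.

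**Figure D2:**
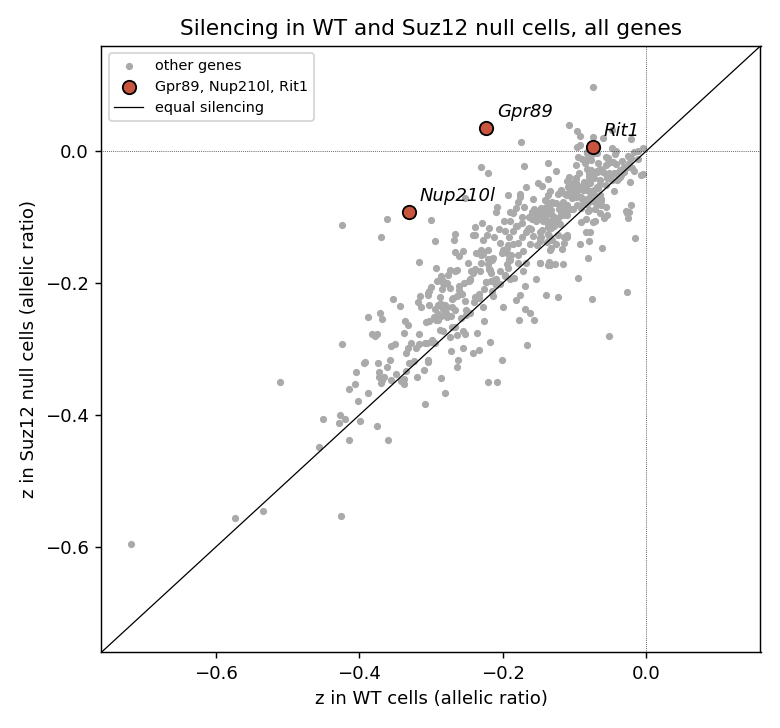
Silencing z in WT cells (x axis) against Suz12 null cells (y axis), both as differences in allelic ratio, for all 538 genes, with the line of equal silencing. Gpr89 and Nup210l lie above the line at differences of 0.258 and 0.239, which rank 3 and 5, below that of Lxn (0.312). Rit1 lies within the cloud near 0.

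The genes within 2 Mb show how the surroundings of each gene differed between the lines. None of the 40 neighbours of *Gpr89*, the 58 of *Nup210l* or the 72 of *Rit1* differed in silencing between the lines by limma at an adjusted p under 0.05 (112 different genes, as the windows of *Nup210l* and *Rit1* overlap). As this test called no gene of the table other than *Gpr89* and *Nup210l*, nothing particular to these windows is read from the 0. At an unadjusted p under 0.05, weaker silencing in *Suz12* null cells was found for 8, 3 and 4 of them, beside 66 of all 538 genes (12.3%). The per-gene test named in the methods gave 7, 8 and 10 without adjustment, beside 107 of all 538 genes (19.9%), and 0 after Benjamini-Hochberg adjustment. The lowest adjusted p was 0.224 around *Gpr89*, for the meiotic chromosome axis gene *Hormad1*, and 0.146 in the other windows, for the SH2-domain adaptor gene *She*, both by limma. No neighbour had a larger difference in z than *Gpr89* or *Nup210l*, which rank 3 and 5 of all 538 genes, so few genes could. Of the 72 neighbours of *Rit1*, 17 had a larger difference than *Rit1*. The median difference of the neighbours was 0.0234 for *Gpr89*, 0.0382 for *Nup210l* and 0.0362 for *Rit1*, near the 0.0343 of all genes.

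In WT cells *Gpr89* was silenced more than 31 of its 40 neighbours, whose median z was -0.129. Its change with Dox relative to the library medians of the neighbours was -0.0807, and -0.0279 against the 9 neighbours within 1 Mb. However, in *Suz12* null cells all 40 neighbours were silenced more than *Gpr89*, with a median of -0.0835. *Nup210l* was silenced more than all 58 neighbours in WT cells (median -0.0838) and more than 41 of them in *Suz12* null cells (median -0.0433). *Rit1* behaved like its surroundings in WT cells, where 44 of 72 neighbours were silenced more and their median was -0.0847. In *Suz12* null cells 66 of the 72 were silenced more than *Rit1*, at a median of -0.0540.

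The levels in single libraries, from which the values above were computed, are a description and not separate support. In the WT Dox libraries the ratio of *Gpr89* was 0.286, 0.262 and 0.177 above the median of its neighbours, and in the *Suz12* null Dox libraries 0.456, 0.386 and 0.407 above it. *Nup210l* lay below that median in the WT Dox libraries, with differences of -0.236, -0.244 and -0.228, and closer to it in the *Suz12* null Dox libraries, with differences of -0.152, -0.126 and -0.138. Without Dox, *Nup210l* differed from the median by -0.0290 to 0.0221 in WT cells, yet by -0.113, -0.123 and -0.0845 in *Suz12* null cells. *Rit1* was above the median of its neighbours in every library, by 0.116 to 0.227 in the WT Dox libraries and by 0.0990 to 0.258 in those of *Suz12* null cells.

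**Figure D3:**
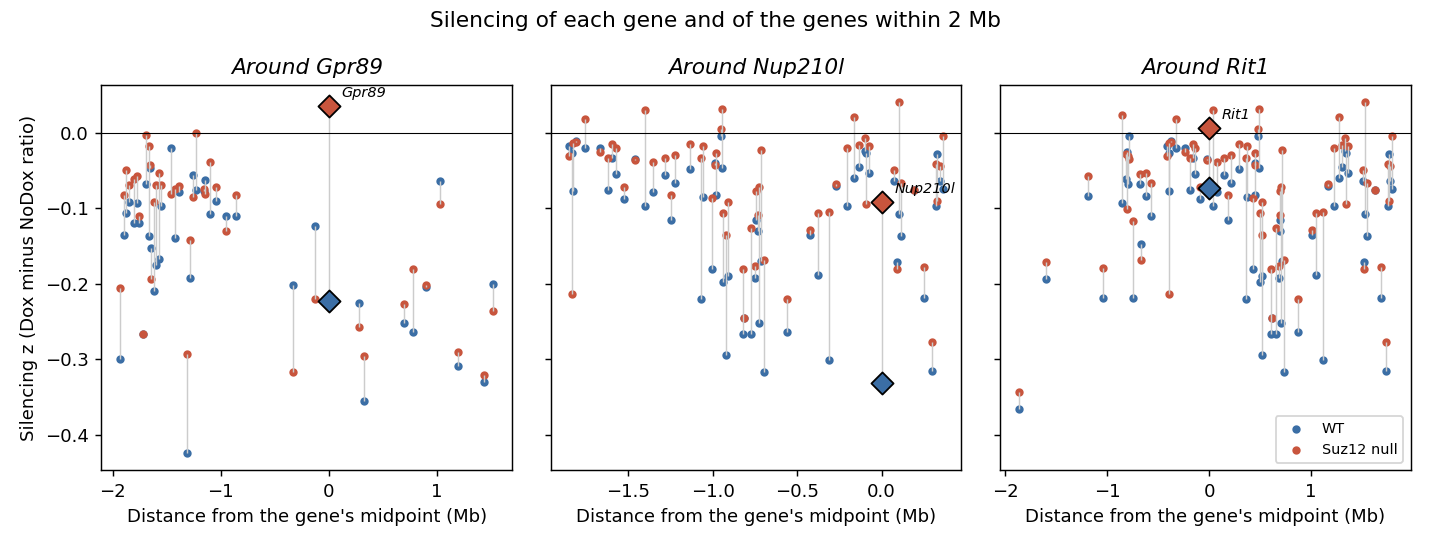
Silencing z (Dox minus NoDox allelic ratio) of each gene (diamonds) and its neighbours (dots) against distance from the gene's midpoint in Mb, in WT (blue) and Suz12 null cells (red), joined by a grey line per gene, with the other members left out. The long line at Gpr89 runs from -0.223 to 0.0353 and that at Nup210l from -0.331 to -0.0918, while no neighbour differed by more than 0.196.

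The nearest listed genes differed less between the lines than *Gpr89* and *Nup210l* did. As these 2 members rank 3 and 5 of 538 on the difference, nearly any gene would, and nothing is read from it. A gene next to *Rit1*, *Syt11*, had a larger difference than *Rit1*. Beside *Gpr89*, the ubiquitin ligase gene *Rnf115*, 129 kb away, had a z of -0.123 in WT cells and -0.221 in *Suz12* null cells, and *Acp6*, a lysophosphatidic acid phosphatase gene 280 kb away, had -0.225 and -0.258. Beside *Nup210l*, the tropomyosin gene *Tpm3*, 71.3 kb away, had -0.0527 and -0.0171, and *Jtb*, which encodes a transmembrane protein, 75.6 kb away, had -0.0639 and -0.0489. Beside *Rit1*, *2810403A07Rik* had -0.0344 and -0.0359, and *Syt11*, a synaptotagmin gene, had -0.0966 and 0.0305, a difference of 0.127. None of these 6 passed limma's test of the difference, with adjusted p of 0.410 to 0.973. *Nup210l* and *Rit1* lie in the same 10-Mb stretch of 114 listed genes, whose median z was -0.0973 in WT cells, against -0.177 over the other 424 genes. Within it *Nup210l* was the 4th most silenced in WT cells and the 41st in *Suz12* null cells, and *Rit1* the 79th and the 108th.

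The *Lbr* table asks whether the silencing of the 3 genes recurs in cells that keep *Suz12* and that were not used to choose them. *Nup210l* and *Rit1* were silenced in the *Lbr* null clones and *Gpr89* was not found to be. In clones 4C7A, 4C8E and 4F9F, *Nup210l* had NoDox ratios of 0.385, 0.495 and 0.541 and Dox ratios of 0.193, 0.314 and 0.191. All 3 clones fell, without overlap, as did 92.6% of all genes, and z was -0.241 ± 0.0515 (limma SE, n = 3 clones, limma adjusted p = 0.00461). Each z of the *Lbr* null clones is given with limma's SE, which draws on the spread over all genes. The SEs between libraries, as given for the first table, were 0.0614 for *Nup210l*, 0.0266 for *Rit1* and 0.0911 for *Gpr89*. *Rit1* had NoDox ratios of 0.571, 0.629 and 0.567 and Dox ratios of 0.474, 0.531 and 0.521. It also fell in 3 of 3 clones, by a small amount, with z of -0.0804 ± 0.0245 (limma adjusted p = 0.0192). Without clone 4C7A its adjusted p was 0.0740 and without 4C8E 0.0509 by limma. The same test called 92.5% of all 517 genes lower with Dox, so 2 of 3 members is not above the background.

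*Gpr89* had NoDox ratios of 0.760, 0.750 and 0.500 and Dox ratios of 0.692, 0.583 and 0.611 in the 3 clones. The NoDox library of clone 4F9F stood apart from the other two, and in this clone alone the ratio was higher with Dox. z was -0.0411 ± 0.0753 (limma adjusted p = 0.615), with a 95% interval of -0.226 to 0.143 that takes in both the WT and the *Suz12* null value of the first table. Without clone 4F9F z was -0.117 (limma adjusted p = 0.0602), and without 4C8E it was 0.0217. All 36 neighbours of *Gpr89* in this table passed the same test, as did 40 of 55 for *Nup210l* and 50 of 68 for *Rit1*.

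In the unreplicated WT pair of this table *Gpr89* went from 0.741 to 0.682 (z -0.0589), *Nup210l* from 0.467 to 0.181 (z -0.286) and *Rit1* from 0.542 to 0.541 (z -0.00139). On this pair *Gpr89* ranked 482 and *Rit1* 516 of 517 from the most silenced, and *Nup210l* 153. The median z over all genes was -0.2004 in the pair and -0.192 in the *Lbr* null clones, both more negative than the -0.158 of the 3 WT Dox libraries of the first table. The large WT silencing of *Gpr89* was thus seen in the 3 WT libraries of the first table and not at that size in the pair, whereas that of *Nup210l* was large in both. The labels do not say whether the 2 tables come from the same experiment, and the differences between them were not tested.

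Against its neighbours, the member's ratio minus their median changed with Dox by 0.162 for *Gpr89* in the *Lbr* null clones, from 0.198 ± 0.152 to 0.360 ± 0.0433 (SD, n = 3, exact two-sided permutation p = 0.10). For *Nup210l* the change was -0.117 (exact permutation p = 0.20) and for *Rit1* 0.0517 (exact permutation p = 0.20). With 3 libraries against 3 the smallest possible p is 0.10. In these clones none of the 36 neighbours of *Gpr89* was silenced less than it, 46 of 55 were silenced less than *Nup210l*, and 26 of 68 were silenced less than *Rit1*.

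**Figure D4:**
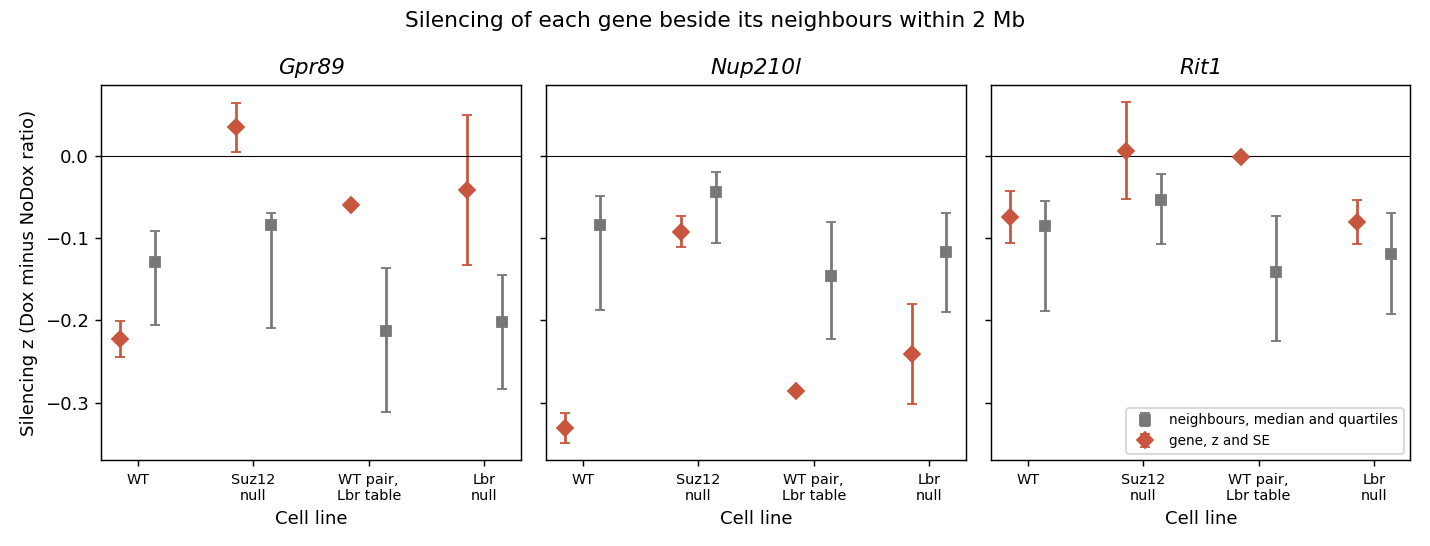
Silencing z (Dox minus NoDox allelic ratio) of each gene (red, with the SE between libraries where there are 3 libraries a group) beside the median and quartiles of its neighbours within 2 Mb (grey) in the 4 sets of libraries. Nup210l lies below the median of its neighbours in all 4, at -0.331, -0.0918, -0.286 and -0.241, though within their quartiles in Suz12 null cells, and of the 4 sets Gpr89 lies below that median in WT cells of the first table only.

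Expression did not set the 3 genes apart as a group. The deposited RPKM, a level per gene length whose library is not named, was 13.5 for *Gpr89*, 6.04 for *Rit1* and 1.12 for *Nup210l*, against a median of 10.9 over all 538 genes. *Nup210l* was among the lowest, with 53 genes below it, while *Gpr89* was above the median.

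By Pearson correlation of ratios over the 12 libraries of the first table, which share their Dox and NoDox groups, the genes most like *Gpr89* were the transcription factor gene *E2f5* (r = 0.895), *Mllt11* (0.849) and the centriole gene *Sclt1* (0.844). Those most like *Nup210l* were *Zfp704* (0.974), the heat shock protein gene *Hspa4l* (0.965) and the centriole duplication kinase gene *Plk4* (0.960). For *Rit1* they were *Krtcap2* (0.751), *Zfp687* (0.681) and *Fam63a* (0.666). The median r with all other genes was 0.563 for *Gpr89*, 0.841 for *Nup210l* and 0.342 for *Rit1*, so a high r is common wherever a gene falls with Dox. *Gpr89* and *Nup210l* correlated at 0.787, and *Rit1* at 0.393 with *Gpr89* and 0.459 with *Nup210l*. Of these 9 genes only *Mllt11* and *Krtcap2* lie within 2 Mb of their member. The difference in z of *E2f5* was 0.0811, that of *Hspa4l* 0.124 and that of *Krtcap2* 0.0980.

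Of 3 lists of related genes on chromosome 3, the Ras-family and Golgi lists had median differences near that of all genes (0.0303 and 0.0323). The nuclear envelope and transport list, of 2 genes, had a smaller one (0.00914). Only the Ras-family list held members above *Rit1*. Of 19 Ras-family GTPase and regulator genes 13 were listed in the first table, and by limma 0 passed the test of the difference in either direction at an adjusted p under 0.05 (2 were weaker in *Suz12* null cells at an unadjusted p under 0.05, and 4 by the methods' per-gene test, which took in 19.9% of all genes). Their median z was -0.190 in WT and -0.161 in *Suz12* null cells, and their median difference 0.0303, beside 0.0343 for all genes. The differences ran from -0.0797, for *Gnb4*, to 0.187. Those of *Rusc1* (0.187), *Syde2* (0.0977) and *Rap1a* (0.0828) were above the 0.0806 of *Rit1*. As the limma test called 0.372% of all genes, 0 of 13 is no departure from the background. *Nras*, a Ras GTPase gene, had z of -0.0884 and -0.0582, and *Rap1a*, another GTPase gene of the family, had -0.238 and -0.155. All 14 of the list in the *Lbr* table were lower with Dox in the *Lbr* null clones, among them *Nras* (z -0.115 ± 0.0133, limma adjusted p = 3.04e-04).

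Of 14 Golgi and vesicle traffic genes, all listed, 0 passed the test of the difference by limma (1 weaker at an unadjusted p under 0.05, and 2 by the methods' per-gene test). Their median z was -0.144 in WT and -0.137 in *Suz12* null cells, with differences from -0.0616 to 0.0677, all smaller than that of *Gpr89*. The golgin gene *Golim4* had z of -0.296 and -0.252, and *Golph3l*, a relative of the Golgi phosphoprotein GOLPH3, had -0.193 and -0.142. All 14 were lower with Dox in the *Lbr* null clones by limma. Of 2 nuclear envelope and transport genes, the importin gene *Kpna4* had z of -0.111 and -0.0880 and the lamin gene *Lmna* -0.0198 and -0.0249. Neither differed between the lines by limma (adjusted p = 0.625 and 0.970, with 0 at an unadjusted p under 0.05 by limma and 0 by the methods' per-gene test), and in the *Lbr* null clones only *Kpna4* was lower with Dox (z -0.139, limma adjusted p = 7.18e-04), while *Lmna* had z of -0.0281 (limma adjusted p = 0.596).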

How the data were processed

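The 20 libraries used here, 12 in the table of WT and *Suz12* null cells and 8 in that of the *Lbr* null clones, were made from chromatin RNA, except that the WT pair of the latter is titled mRNA. Per the methods and the submitters' processing notes, the authors removed rRNA reads with Bowtie2 2.3.2, aligned the rest to N-masked mm10 with STAR 2.4.2a, used SNPsplit to assign reads to alleles and featureCounts for stranded counts per gene. The authors deposited the allelic ratio, a fraction from 0 to 1, for genes on which 10 or more reads covered a SNP, and an RPKM per gene. Reference bias and genes near that minimum can shift a ratio, and no scaling between libraries was applied. Their columns of group means, differences and p-values were not used. Groups and replicate numbers came from the sample titles (clones for *Lbr* null cells). The growth protocol of the labels names a shorter induction, and the titles were followed.

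Ratios were fitted with limma 3.58.1 (R 4.3.3; lmFit and eBayes, 1 coefficient per group, Benjamini-Hochberg over all genes of a table, adjusted p under 0.05). Neighbours are listed genes within 2 Mb, midpoint to midpoint, without the members. Other steps used Python 3.11.15. On simulated ratios for the difference between lines (538 genes) limma called 2 of 20 genes changed by 0.1, 14 of 20 changed by 0.2 and 20 of 20 changed by 0.3. For the *Lbr* null clones (517 genes) it called 9, 20 and 20 of 20. Of the unchanged genes it called 2 of 478 and 2 of 457. The simulation gave every gene and library the same spread, pooled from the NoDox libraries. Real spread differs between genes and between NoDox and Dox libraries, so these shares do not measure the power of the real tests. Alternatives were the logit scale, a filter on NoDox ratios of 0.2 to 0.8, replicate or clone blocks, windows of 1 and 5 Mb, neighbour means, medians of libraries, Student's and permutation tests, and leaving out libraries. The members, gene lists and tests were chosen with earlier results of these data known. Named genes are the members, the nearest listed gene on each side, neighbours past the test, the 3 genes most correlated with each member, and list members. Other genes (*Lxn*, *Pabpc4l*, *Lrit3*, *Hax1*, *4930579G24Rik*, *Hormad1*, *She*, *Rusc1* and *Lmna*) were named after their values were seen. The methods call the libraries of a line biological replicates without naming separate cultures, so p-values measure the spread between these libraries, which may be technical.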

Additional observations from a re-analysis of the deposited data

How the results depend on the processing

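Silencing of *Nup210l* in the *Lbr* null clones kept its direction and its call on the logit scale, with the NoDox filter, with the clone as a block and without each clone (z -0.271 to -0.187), but the exact permutation test cannot go below p = 0.10, which it gave for *Nup210l* (-0.241) and *Rit1* (-0.0804). *Rit1* lost its call without clone 4C7A (z -0.0718) and without 4C8E (-0.0718), in a range of -0.0977 to -0.0718. For *Gpr89* leaving out a clone gave -0.117 to 0.0217, and the sign turned without 4C8E. The cause was not tested. The clone block gave -0.0411, -0.241 and -0.0804 for *Gpr89*, *Nup210l* and *Rit1* and changed no call.

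The count of 0 called neighbours stayed at 0 for all 3 members under every limma alternative, windows of 1 and 5 Mb and each left-out library (0 to 0). Student's test at an unadjusted p under 0.05 gave 7, 8 and 10. Over all genes limma called 2, and 4 on the logit scale, while Student's test gave 107 weaker in *Suz12* null cells unadjusted and 5 genes adjusted. Replicate numbers did not pair the libraries of the first table (correlations of same-numbered deviations -0.104 to 0.123), and the replicate block left 0 called neighbours for each member and 2 called genes in all. The changes of the members against their neighbours in the *Lbr* null clones ranged without each clone from 0.0807 to 0.223 for *Gpr89*, from -0.149 to -0.0563 for *Nup210l* and from 0.0412 to 0.0605 for *Rit1*. In the first table, z ranged without each library from -0.238 to -0.203 (WT) and from 0.0194 to 0.0645 (*Suz12* null) for *Gpr89*, and from -0.0212 to 0.0515 for *Rit1* in *Suz12* null cells. With a 1 Mb window the change of *Gpr89* relative to its neighbours went from 0.151 to 0.249 in *Suz12* null cells and from -0.0807 to -0.0279 in WT cells. Without read counts no read minimum above the authors' could be tried.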
